A study of Neurospora crassa with 22 samples.

Results

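Wild-type Neurospora crassa, a filamentous ascomycete, was compared after growth with and without Nikkomycin Z in the RNA that stayed on GFP-Trap beads, magnetic beads that carry a GFP-binding protein. The comparison was chosen by the labels alone: the libraries labelled wild-type, pull-down RNA and Nikkomycin Z (3 libraries) were set against those labelled wild-type, pull-down RNA and no agent (3 libraries), 6 of the 22 libraries of the series. All 6 came from hyphae of the untagged wild-type grown in Vs, Vogel's minimal medium with sucrose as the carbon source. Cultures of the treated group received 1e-05 M Nikkomycin Z for the last 1 h. The wild-type carries no GFP, so that its pull-down holds RNA retained by the beads without a tagged protein, and it served in the study as the control for the GUL-1-GFP strain. In that strain a gul-1-sgfp fusion driven by the ccg-1 promoter at his-3 replaces the deleted gul-1, which encodes an RNA-binding protein related to yeast Ssd1. The remaining libraries, used here only for comparison, were the 6 GUL-1-GFP pull-downs and the 6 wild-type inputs, total RNA without the pull-down. The other 4 libraries, GUL-1-GFP inputs, enter the joint fit only. For 2 of them, in standard medium, the title carries the code of a pull-down whereas the fraction label reads total RNA, and the fraction label was followed.

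Chitin, a polymer of N-acetylglucosamine, is made at the plasma membrane by chitin synthases and is a structural part of the fungal cell wall together with beta-glucans and glycoproteins. Nikkomycin Z resembles UDP-N-acetylglucosamine, the substrate of these enzymes, and inhibits them competitively. Damage to the wall is sensed by membrane proteins such as WSC-1 and HAM-7 and is passed on by the cell wall integrity (CWI) pathway, in which protein kinase C acts above a MAP kinase cascade that ends in MAK-1.

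Total counts lay between 18053826 and 28372176 in the 6 pull-downs. NCU15719, the rRNA feature with the highest count, held 53.8, 32.9 and 32.4% of the counts in standard-medium replicates 1 to 3 and 51.9, 56.6 and 48.6% with Nikkomycin Z. Protein-coding genes received 1.43, 2.16 and 4.13% of the counts in standard medium and 2.57, 1.23 and 2.37% with Nikkomycin Z. The mean shares of 2.57% ± 1.40 (SD, n = 3) and 2.06% ± 0.726 (SD, n = 3) differed by less than the spread within the groups (two-sided exact permutation test, p = 0.80, the smallest p of this design being 0.10). This left between 257726 and 1171431 counts on protein-coding genes, of which between 6347 and 7439 genes had at least 1 count. Levels are given below as CPM, the count of a feature relative to a library size scaled by TMM (trimmed mean of M values), and 3 counts correspond to between 0.0431 and 0.175 CPM in these libraries. A log2FC is the fitted log2 fold change with against without Nikkomycin Z, with its standard error (SE), and adjusted p is that of edgeR's quasi-likelihood test after Benjamini-Hochberg adjustment over all features tested, called at 0.05.

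Replicate 1 of the standard medium stood apart from its group. Across 2046 features with a mean over 2 CPM, its log2 CPM had a Spearman correlation of 0.32 and 0.43 with replicates 2 and 3 of the standard medium, which correlated at 0.84 with each other. Its correlations with the 3 Nikkomycin Z libraries, which lay between 0.84 and 0.89 among themselves, were higher, between 0.55 and 0.59. It was most like the input of the same number, at 0.80. Replicates 2 and 3, in turn, correlated at 0.71 to 0.83 with replicates 2 and 3 of the GUL-1-GFP pull-downs in standard medium. With the GUL-1-GFP pull-downs with Nikkomycin Z they correlated at 0.65 to 0.79, whereas the wild-type pull-downs with Nikkomycin Z correlated with those treated libraries at 0.32 to 0.39. Replicate 1 of the GUL-1-GFP pull-downs in standard medium also stood apart, correlating at 0.60 to 0.62 with the wild-type pull-downs with Nikkomycin Z. These correlations are across features and carry no test. The group of 3 standard-medium libraries therefore holds profiles of different kinds, the labels do not say what distinguishes them, and whether a library was mislabelled or exchanged was not tested. An exchanged library would change what every difference below compares. All libraries are kept under their labels, and the calls and list medians below are given with and without replicate 1. The labels also do not say whether replicates are separate cultures, so p-values measure the spread between these libraries only.

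**Figure D1:**
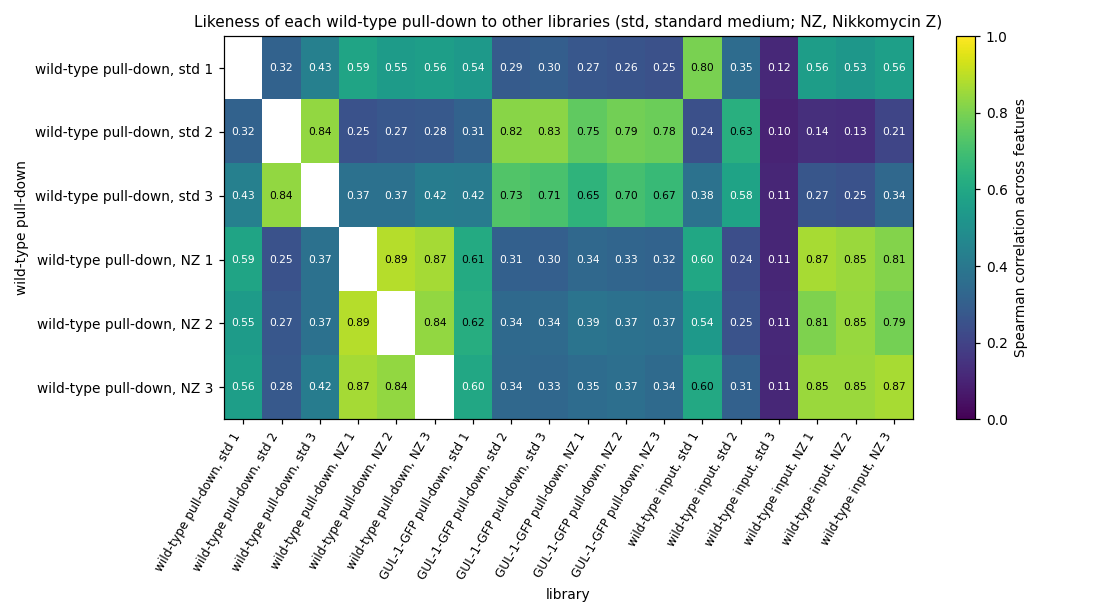
Spearman correlation of log2 CPM across 2046 features between each wild-type pull-down (rows) and the other pull-downs and the wild-type inputs (columns), with the same-library cells left blank. Standard-medium replicate 1 is closer to the Nikkomycin Z pull-downs (0.55 to 0.59) than to replicates 2 and 3 (0.32 and 0.43), and input replicate 3 of the standard medium holds only 59 protein-coding counts.

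With all 22 libraries in the fit, 7114 features were tested and 3 passed at an adjusted p under 0.05 (0.0422% of the features tested), 2 of them higher with Nikkomycin Z (0.0281%) and 1 lower (0.0141%). The unadjusted p was under 0.05 for 822 features (11.6%), and the median log2FC over all features was 0. The fit over the 12 pull-downs without the inputs called 70 of 6780 features (1.03%), 45 higher (0.664%) and 25 lower (0.369%), which included the 3. Leaving out standard-medium replicate 1 raised the count over the 22-library design to 46 of 7096 (0.648%), 25 higher (0.352%) and 21 lower (0.296%), which also included the 3. Without that replicate in the fit of pull-downs alone, 512 of 7085 features passed (7.23%), 213 higher (3.01%) and 299 lower (4.22%). The 2 fits without replicate 1 are named below by their 21 libraries and 11 pull-downs, and list medians without replicate 1 are those of the former. The 6 libraries alone gave 8 of 5822 with edgeR (0.137%, all higher) and 534 with DESeq2 (9.17%), and DESeq2 over the 22 libraries called 69 (0.97%). The groups did not overlap for 1863 of the 7114 features (26.2%), 1034 higher (14.5%) and 829 lower (11.7%) in all 3 Nikkomycin Z libraries.

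The smallest p belonged to inv (NCU04265), which encodes invertase, the enzyme that splits sucrose into glucose and fructose. It stood at 2.8, 1.51 and 2.04 CPM in the standard-medium replicates 1 to 3 and 17.5, 45.3 and 36.2 CPM with Nikkomycin Z. The groups did not overlap, and the transcript was 15.6-fold higher with Nikkomycin Z (log2FC 3.96, SE 0.59, adjusted p = 0.002). It stayed past the threshold with each of the 6 libraries left out in turn (adjusted p = 0.0018 to 0.048). Of the other alternatives run, it was lost with total counts as library sizes (adjusted p = 0.28) and with a replicate block in the 6 libraries (adjusted p = 0.15).

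NCU01873, for which no product was named in the sources used here, had 1.79, 3.02 and 3.07 CPM in standard medium and 21.5, 15.5 and 30.5 CPM with Nikkomycin Z (log2FC 3.09, SE 0.60, adjusted p = 0.049). All 3 treated libraries were above the standard-medium range, but leaving out any single library other than standard-medium replicate 1 ended the call (adjusted p = 0.082 to 0.35). The only lower call, NCU00556, had no counts in the 3 Nikkomycin Z libraries and 2.30, 0 and 2.67 CPM in standard medium, so that the groups met at 0 in replicate 2. Against 3 counts per treated library it was at least 13.0-fold lower as a group mean, a limit that does not hold for replicate 2 alone. Its adjusted p was 0.013, and the call was lost without any of the Nikkomycin Z libraries (adjusted p = 0.082 to 0.18).

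A hexose transporter stood among the next genes by p. NCU01633, a hexose transporter of the HXT13 type, had 37.0, 8.72 and 16.4 CPM in standard medium and 203, 298 and 321 CPM with Nikkomycin Z, with no overlap and replicate 1 the highest of the standard-medium group. Its increase did not pass over the 22 libraries (log2FC 3.73, SE 0.81, adjusted p = 0.096) and passed over the 12 pull-downs (adjusted p = 0.014) and over the 21 libraries (log2FC 4.45, adjusted p = 0.032). NCU00878, with no product named, stood at 14.5, 9.35 and 14.8 CPM in standard medium and 59.8, 68.6 and 114 CPM with Nikkomycin Z (log2FC 2.65, adjusted p = 0.096) and likewise passed over the 12 pull-downs (adjusted p = 0.025). It did not overlap between the groups either.

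Of the other higher genes without overlap, 3 described here encode proteins with a named function. pex4 (NCU02636), a ubiquitin-conjugating enzyme that works in peroxisomal protein import, had 4.71, 1.63 and 2.37 CPM in standard medium and 18.1, 13.6 and 15.7 CPM with Nikkomycin Z (log2FC 2.45, adjusted p = 0.096). NCU08319, named after the Aspergillus developmental regulator FlbA, had 2.35, 0.915 and 2.18 CPM in standard medium and 17.1, 14.8 and 15.5 CPM with Nikkomycin Z (log2FC 3.12, adjusted p = 0.13). NCU00761, a triacylglycerol lipase named here after its values were seen, had 3.19, 1.67 and 2.91 CPM in standard medium and 24.6, 23.3 and 18.2 CPM with Nikkomycin Z (log2FC 3.08, adjusted p = 0.14). None of these passed over the 22 libraries, and each passed over the 12 pull-downs (adjusted p = 0.029, 0.023 and 0.023).

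NCU03698 and its neighbour NCU03699 rose side by side in the fit over the 12 pull-downs (adjusted p = 0.012 and 0.014). NCU03698 had 1.12, 0.438 and 0.818 CPM in standard medium and 10.7, 10.4 and 5.41 CPM with Nikkomycin Z. NCU03699, named after its values were seen, had 9.86, 6.88 and 6.59 CPM in standard medium and 52.9, 59.6 and 29.1 CPM with Nikkomycin Z. Whether reads of these adjoining genes were kept apart by the counting was not tested. Transcripts of low level made up the rest of the higher list. NCU09992 was at 0, 0 and 0.56 CPM in standard medium and at 3.27, 3.96 and 3.09 CPM with Nikkomycin Z, and NCU07895 had 0.784, 1.03 and 1.06 CPM in standard medium and 6.58, 6.22 and 4.68 CPM with Nikkomycin Z. NCU08564 had no counts in standard medium and 0.144, 0.407 and 1.36 CPM with Nikkomycin Z. It was at least 5.78-fold higher as a group mean, a limit that rests on treated replicate 3 (41 counts, beside 4 and 7 in replicates 1 and 2). The ncRNA NCU14090 had 0.168, 0 and 0.0718 CPM in standard medium and 2.01, 1.92 and 2.39 CPM with Nikkomycin Z, and the tRNA NCU15290 had 0.056, 0.0398 and 0.0287 CPM in standard medium and 1.65, 0.291 and 1.09 CPM with Nikkomycin Z. Of these, NCU09992 and NCU07895 passed over the 12 pull-downs (adjusted p = 0.042 and 0.042).

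**Figure D2:**
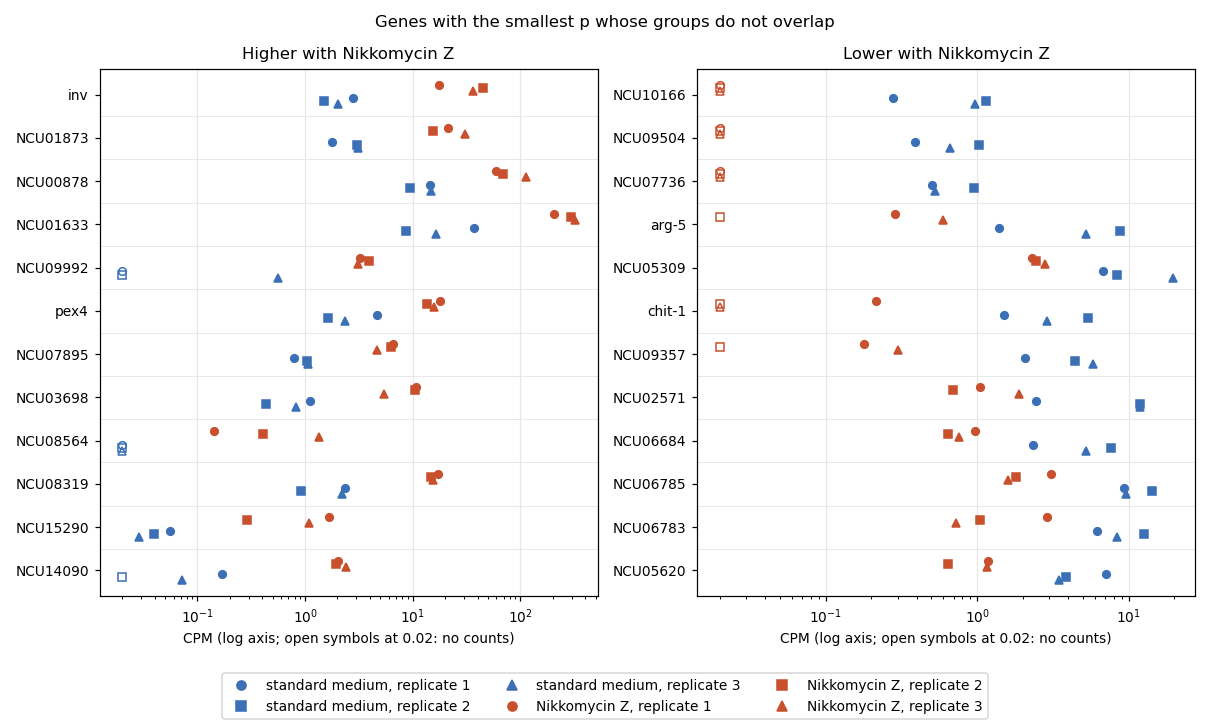
CPM (log axis) of the 12 genes with the smallest p in each direction whose groups do not overlap, in each of the 3 standard-medium and 3 Nikkomycin Z pull-downs; open symbols mark libraries without counts. For inv the treated libraries lie between 17.5 and 45.3 CPM and the standard-medium libraries between 1.51 and 2.80 CPM.

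Among the 12 lower genes with the smallest p and no overlap were NCU06785 and NCU06783. NCU06785 and NCU06783 encode the subunits of ATP citrate lyase, which makes acetyl-CoA from citrate. NCU06785 had 9.36, 14.4 and 9.56 CPM in standard medium and 3.09, 1.8 and 1.59 CPM with Nikkomycin Z (log2FC -2.35, SE 0.59, adjusted p = 0.13). NCU06783 had 6.16, 12.6 and 8.42 CPM in standard medium and 2.88, 1.05 and 0.73 CPM with Nikkomycin Z (log2FC -2.54, SE 0.65, adjusted p = 0.14). For both, all treated libraries were below all standard-medium libraries, replicate 1 included.

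Several genes of lipid synthesis are given beside them, chosen after their values were seen. cel-1 (NCU07308) and cel-2 (NCU07307) encode the alpha and beta subunits of fatty acid synthase. cel-1 stood at 12.9, 16.5 and 9.27 CPM in standard medium and 2.16, 1.28 and 4.21 CPM with Nikkomycin Z (log2FC -2.32, adjusted p = 0.18). cel-2 stood at 9.69, 21.8 and 12.3 CPM in standard medium and 2.01, 1.57 and 2.99 CPM with Nikkomycin Z (log2FC -2.73, adjusted p = 0.19). Acetyl-CoA carboxylase (NCU08535), which forms malonyl-CoA, had 1.4, 12.5 and 3.47 CPM in standard medium and 0.216, 0.582 and 0.531 CPM with Nikkomycin Z (log2FC -3.71, adjusted p = 0.18). NCU02571, an acetyl-CoA acetyltransferase and one of the 12, had 2.47, 11.8 and 11.9 CPM in standard medium and 1.04, 0.698 and 1.89 CPM with Nikkomycin Z (log2FC -2.84, adjusted p = 0.13). The groups did not overlap for any of these, whereas in acetyl-CoA carboxylase and NCU02571 replicate 1 of the standard medium lay much nearer to the treated range than replicates 2 and 3. None of these 6 passed over the 22 libraries. Over the 12 pull-downs only NCU06785 of them passed (adjusted p = 0.047), over the 21 libraries only NCU02571 (adjusted p = 0.03), and over the 11 pull-downs all but cel-1 (adjusted p = 0.07 for cel-1). The sterol and lipid synthesis list as a whole, 11 genes that include cel-1 and cel-2, had a median log2FC of -0.034 with and 0.15 without replicate 1. No gene of it passed over the 22 or 21 libraries or the 12 pull-downs, and cel-2 alone passed over the 11 (adjusted p = 0.026). That pair was the lowest of the list.

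arg-5 (NCU05410), acetylornithine aminotransferase of arginine synthesis, had 1.4, 8.8 and 5.27 CPM in standard medium and 0.288, 0 and 0.597 CPM with Nikkomycin Z (log2FC -4.01, SE 0.92, adjusted p = 0.096). It passed over the 12 pull-downs (adjusted p = 0.048) and over the 21 libraries (adjusted p = 0.03). chit-1 (NCU02184), a chitinase, was at 1.51, 5.41 and 2.88 CPM in standard medium and had counts in a single treated library, at 0.216, 0 and 0 CPM (log2FC -5.31, adjusted p = 0.13). It too passed in both of those fits (adjusted p = 0.048 and 0.047).

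NCU06684, annotated as an RNA-binding protein, had 2.35, 7.64 and 5.25 CPM in standard medium and 0.971, 0.64 and 0.763 CPM with Nikkomycin Z (log2FC -2.67, adjusted p = 0.13), and NCU03897, related to yeast Scp160 and named after its values were seen, had 5.38, 16.6 and 10.0 CPM in standard medium and 1.69, 1.8 and 1.63 CPM with Nikkomycin Z (log2FC -2.64, adjusted p = 0.18). Neither passed over the 22 libraries, and both passed over the 12 pull-downs (adjusted p = 0.047 and 0.048). NCU08441, a non-ribosomal peptide synthetase also named after its values were seen, had 10.9, 35.8 and 23.6 CPM in standard medium and 3.63, 1.69 and 2.65 CPM with Nikkomycin Z (log2FC -3.13, adjusted p = 0.14, and 0.029 over the 12 pull-downs). NCU05309, similar to the Cut9-interacting protein Scn1, had 6.83, 8.36 and 19.5 CPM in standard medium and 2.3, 2.44 and 2.82 CPM with Nikkomycin Z (log2FC -2.20, adjusted p = 0.13).

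Among the lower genes 3 had no counts in any Nikkomycin Z library. NCU10166 was at 0.28, 1.15 and 0.976 CPM in standard medium, NCU09504 at 0.392, 1.03 and 0.66 CPM and NCU07736 at 0.504, 0.955 and 0.531 CPM. Against 3 counts per library they were at least 6.31-, 5.47- and 5.21-fold lower as group means. NCU09357, annotated as similar to the sporulation protein SpoVK, had 2.07, 4.46 and 5.83 CPM in standard medium and 0.18, 0 and 0.299 CPM with Nikkomycin Z, and NCU05620 had 7.06, 3.86 and 3.47 CPM in standard medium and 1.19, 0.64 and 1.16 CPM with Nikkomycin Z, here with replicate 1 the highest library.

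For the target of the drug, none of the 6 chitin synthase genes tested passed in any of the 4 fits named above, and their median log2FC was 0.40 with and 0.48 without replicate 1 against 0 over all features. chs-1 (NCU03611) had 4.71, 4.93 and 3.85 CPM in standard medium and 5.72, 8.2 and 5.37 CPM with Nikkomycin Z, all treated libraries being above all standard-medium ones (log2FC 0.52, SE 0.61, adjusted p = 0.84). chs-3 (NCU04251) had 2.86, 3.5 and 2.35 CPM in standard medium and 3.38, 4.77 and 3.42 CPM with Nikkomycin Z (log2FC 0.41, adjusted p = 0.84), and chs-4 (NCU09324) had 4.54, 2.11 and 2.18 CPM in standard medium and 3.74, 3.96 and 3.75 CPM with Nikkomycin Z (log2FC 0.38, adjusted p = 0.88), both with overlap. NCU05239 had 2.18, 0.836 and 1.59 CPM in standard medium and 1.87, 2.62 and 1.99 CPM with Nikkomycin Z (log2FC 0.49, adjusted p = 0.85).

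chs-5 (NCU04352) and NCU04350, chitin synthases of neighbouring identifiers, spread more within the standard medium than between the treatments. chs-5 had 6.5, 28.9 and 11.7 CPM in standard medium and 12.2, 14.5 and 17.6 CPM with Nikkomycin Z (log2FC -0.087, adjusted p = 0.99). NCU04350 had 6.83, 17.3 and 11.6 CPM in standard medium and 10.1, 11.9 and 12.2 CPM with Nikkomycin Z (log2FC -0.064, adjusted p = 0.99). chs-6 (NCU05268) had no counts in any of the 6 libraries, which allows up to 3 counts in each.

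Genes that supply chitin precursors or modify chitin mostly had a log2FC below 0. Of the 8 genes listed for chitin precursors and chitin modification, 6 were tested and 5 had a log2FC below 0 (median -1.36 with and -1.42 without replicate 1), none passing over the 22 libraries. Over the 12 pull-downs and over the 21 libraries the single call was chit-1, given above, and over the 11 pull-downs chit-1 and NCU07458 passed (adjusted p = 0.019 and 0.02). NCU07458, phosphoacetylglucosamine mutase of the UDP-N-acetylglucosamine route, had 0.56, 2.59 and 2.86 CPM in standard medium and 0.575, 0.582 and 0.564 CPM with Nikkomycin Z (log2FC -1.81, adjusted p = 0.32), its replicate 1 lying within the treated range. gfa1 (NCU07366), glutamine-fructose-6-phosphate amidotransferase at the entry of that route and named here after its values were seen, had 10.5, 16.4 and 11.4 CPM in standard medium and 10.7, 11.4 and 7.1 CPM with Nikkomycin Z (log2FC -0.39, adjusted p = 0.87).

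Glucan synthesis did not change past the threshold in any of the 5 genes tested (median log2FC -0.30 with and -0.20 without replicate 1). The beta-1,3-glucan synthase gene do (NCU06871) had 35.3, 71.2 and 39.8 CPM in standard medium and 35.7, 30.5 and 30.5 CPM with Nikkomycin Z (log2FC -0.60, adjusted p = 0.86), replicate 2 of the standard medium standing above the other libraries. The alpha-1,3-glucan synthases NCU08132 and NCU02478 had log2FC of -0.49 and 0.78, and cot-2 (NCU04189) of 0.26. NCU02478 had 5.43, 11.7 and 3.4 CPM in standard medium and 13.8, 12.5 and 8.72 CPM with Nikkomycin Z, with overlap through replicate 2.

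The 5 GEL beta-1,3-glucanosyltransferases, which elongate and branch wall glucan, likewise held no call (median 0.26 with and 0.17 without replicate 1). gel-3 (NCU08909) had 40.2, 57.5 and 35.1 CPM in standard medium and 67.9, 75.5 and 61.3 CPM with Nikkomycin Z, without overlap (log2FC 0.62, SE 0.57, adjusted p = 0.76). gel-4 (NCU07253) had 3.98, 12.9 and 6.86 CPM in standard medium and 11.3, 11.2 and 10.6 CPM with Nikkomycin Z (log2FC 0.48, adjusted p = 0.83), and NCU06781 had 1.96, 19.5 and 5.25 CPM in standard medium and 5.57, 5.00 and 4.21 CPM with Nikkomycin Z (log2FC -0.86, adjusted p = 0.7). gel-1 (NCU01162) and gel-5 (NCU06850) lay between 0.166 and 2.52 CPM, with log2FC of 0.26 and -0.57.

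In the CWI pathway none of the 12 genes passed over the 22 libraries, the 12 pull-downs or the 21 libraries (median 0.28 with and 0.37 without replicate 1). Over the 11 pull-downs 2 higher and 1 lower passed, given with their values below, beside 3.01% higher and 4.22% lower over all features. The groups did not overlap in 5 of the 12 genes, 4 higher and 1 lower, beside 14.5% of all features higher and 11.7% lower. Of the sensors, wsc-1 (NCU06910) had 23.0, 13.9 and 14.4 CPM in standard medium and 31.9, 34.8 and 26.5 CPM with Nikkomycin Z, without overlap (log2FC 0.86, SE 0.56, adjusted p = 0.6), while ham-7 (NCU00881) had 7.28, 1.43 and 2.68 CPM in standard medium and 5.86, 5.24 and 4.21 CPM with Nikkomycin Z (log2FC 0.44, adjusted p = 0.92).

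Next in the pathway, rgf1 (NCU00668), a guanyl nucleotide exchange factor, had a log2FC of -0.31 and the protein kinase C gene pkc (NCU06544) of 0.14. The MAP kinase kinase mek-1 (NCU06419) had 4.09, 5.65 and 4.42 CPM in standard medium and 10.7, 10.0 and 7.6 CPM with Nikkomycin Z, without overlap (log2FC 1.0, SE 0.56, adjusted p = 0.53). The kinase above it, mik-1 (NCU02234), had 3.03, 7.08 and 5.53 CPM in standard medium and 2.52, 2.62 and 1.86 CPM with Nikkomycin Z (log2FC -1.17, adjusted p = 0.49), and the MAP kinase mak-1 (NCU09842) had 2.63, 2.59 and 3.14 CPM in standard medium and 4.13, 3.84 and 2.02 CPM with Nikkomycin Z (log2FC 0.25, adjusted p = 0.93). The log2FC of the cascade kinases lay on both sides of 0, and none passed over the 22 libraries.

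The highest log2FC of the list belonged to a pair of transcription factors. NCU02558, a MADS-box factor of the MEF2 type related to yeast Rlm1, had 4.71, 0.876 and 1.92 CPM in standard medium and 16.4, 13.3 and 7.53 CPM with Nikkomycin Z (log2FC 2.32, SE 0.91, adjusted p = 0.31). adv-1 (NCU07392), a transcription factor of cell fusion and development, had 23.0, 5.77 and 7.66 CPM in standard medium and 45.8, 29.1 and 25.4 CPM with Nikkomycin Z (log2FC 1.47, SE 0.58, adjusted p = 0.31). Both were without overlap, with replicate 1 the highest of the standard-medium libraries. NCU00430, listed under the CWI pathway as pp-1 in the study, had 2.8, 1.91 and 1.81 CPM in standard medium and 2.8, 2.79 and 2.42 CPM with Nikkomycin Z (log2FC 0.31, adjusted p = 0.92). so (NCU02794), which encodes the SOFT scaffold protein of hyphal fusion, had 0.896, 3.62 and 3.44 CPM in standard medium and 0.683, 1.11 and 0.929 CPM with Nikkomycin Z (log2FC -1.57, adjusted p = 0.31). The fit over the 11 pull-downs called adv-1, NCU02558 and so (adjusted p = 0.013, 0.043 and 0.019).

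**Figure D3:**
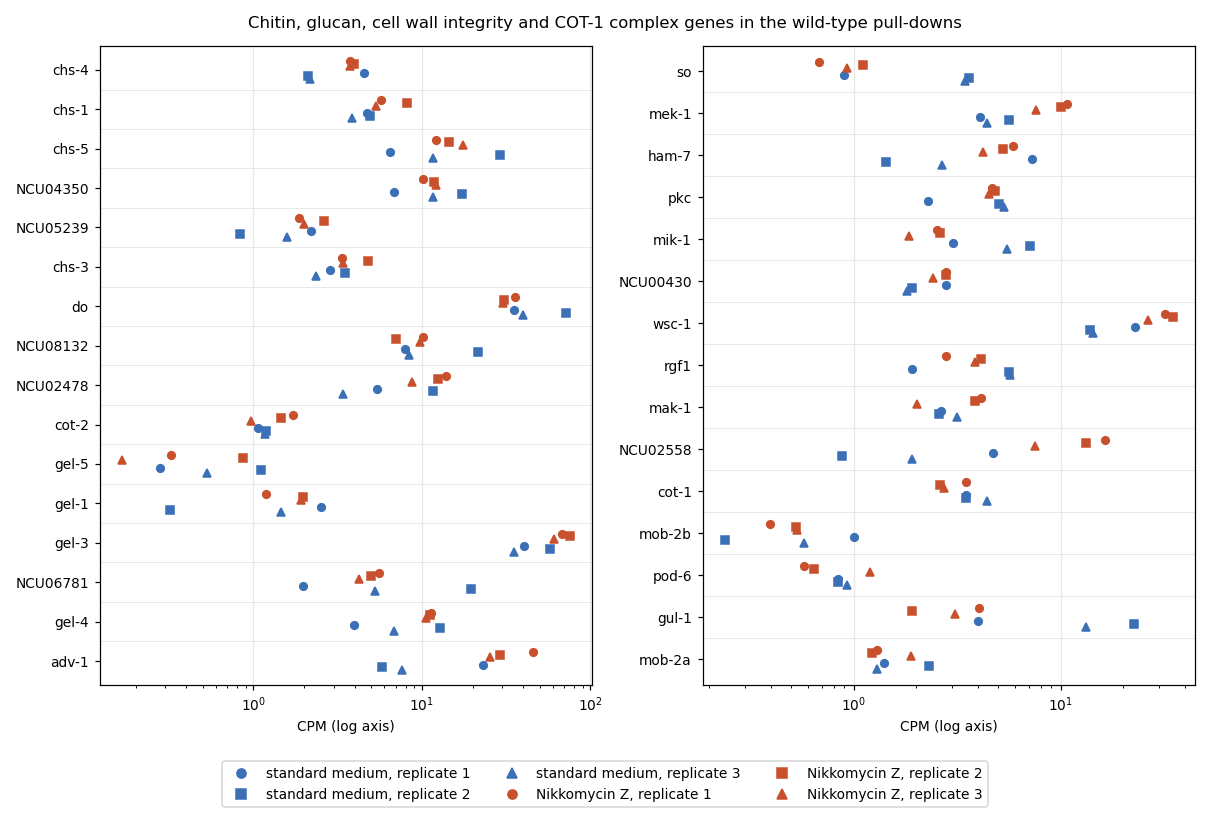
CPM (log axis) of the chitin synthase, glucan synthesis, GEL, cell wall integrity and COT-1 complex genes that were tested and are reported here, in each wild-type pull-down, standard medium in blue and Nikkomycin Z in red, symbols by replicate. None of these genes passed the threshold over the 22 libraries; gul-1 lies at 13.2 and 22.5 CPM in standard-medium replicates 3 and 2 and between 1.92 and 4.03 CPM in the other 4 libraries.

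The COT-1 complex holds the NDR kinase COT-1, its POD-6 partner, the MOB-2 activators and GUL-1. Its 5 genes all had a log2FC below 0 (median -0.31 with and -0.27 without replicate 1) and none passed over the 22 libraries. The wild-type gul-1 (NCU01197) transcript had 3.98, 22.5 and 13.2 CPM in standard medium and 4.03, 1.92 and 3.09 CPM with Nikkomycin Z (log2FC -2.13, SE 0.70, adjusted p = 0.23), replicate 1 lying with the treated libraries. Without replicate 1 its log2FC was -2.56 over the 21 libraries (adjusted p = 0.073) and -2.62 over the 11 pull-downs, where it passed (adjusted p = 0.028) as the only gene of the list. cot-1 (NCU07296) had 3.47, 3.5 and 4.41 CPM in standard medium and 3.49, 2.62 and 2.72 CPM with Nikkomycin Z (log2FC -0.37, adjusted p = 0.9). The log2FC of pod-6 (NCU11235), mob-2a (NCU03314) and mob-2b (NCU07460) were -0.11, -0.17 and -0.31.

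Of 17 cell wall proteins tested, 12 had a log2FC above 0 (median 0.29 with and 0.33 without replicate 1). ncw-3 (NCU07817), a non-anchored wall protein, had 9.86, 6.21 and 8.94 CPM in standard medium and 21.2, 29.4 and 33.4 CPM with Nikkomycin Z, without overlap (log2FC 1.75, SE 0.50, adjusted p = 0.18), and was the only member called over the 12 pull-downs (adjusted p = 0.047). acw-10 (NCU03013), an anchored wall protein, had 1.06, 0.358 and 0.818 CPM in standard medium and 5.07, 3.43 and 3.85 CPM with Nikkomycin Z (log2FC 2.46, adjusted p = 0.23). Over the 11 pull-downs 4 of the 17 passed, all higher, beside 3.01% of all features, namely ncw-3, acw-10, acw-11 and acw-12 (adjusted p = 0.022, 0.03, 0.019 and 0.019), and none passed over the 21 libraries. Among the 48 glycoside hydrolases tested of the 80 listed, chit-1 was the single gene past the threshold over the 12 pull-downs and over the 21 libraries, and none passed over the 22 libraries (median 0.054 with and 0.22 without replicate 1). gh3-1 (NCU03641), a beta-glucosidase, had 0.336, 1.43 and 1.77 CPM in standard medium and 4.1, 4.48 and 5.01 CPM with Nikkomycin Z, without overlap (log2FC 1.90, adjusted p = 0.18). It passed over the 11 pull-downs (adjusted p = 0.035), where chit-1 was the only other glycoside hydrolase called.

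The lowest median of the lists described belonged to amino acid biosynthesis. Of its 59 genes, 54 had a log2FC below 0, beside 3550 of the 7114 features, and the median was -1.49 with and -1.97 without replicate 1, against 0 over all features. The summed level of the list was 69.0, 299 and 214 CPM in standard-medium replicates 1 to 3 and 73.7, 53.5 and 73.4 CPM with Nikkomycin Z. Replicate 1 thus lay within the treated range, and replicates 2 and 3 lay well above it. The sums in the GUL-1-GFP pull-downs were 63.5, 256 and 319 CPM without and 316, 296 and 332 CPM with the drug.

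No gene of this list passed over the 22 libraries, and arg-5 alone passed over the 12 pull-downs. Of the 59 genes, 26 had an unadjusted p under 0.05 over the 22 libraries, all lower, beside 443 of the 7114 features lower. Without replicate 1 the calls were arg-5, his-6 and ilv-4 over the 21 libraries, all lower, and 23 lower and 0 higher over the 11 pull-downs (23 of 59, beside 4.22% of all features). his-6 (NCU07156), a bifunctional enzyme of histidine synthesis, had 0.392, 9.59 and 3.76 CPM in standard medium and 0.18, 0 and 0.498 CPM with Nikkomycin Z (log2FC -4.21, adjusted p = 0.18, and 0.047 over the 21 libraries). NCU06360, histidinol-phosphate aminotransferase, named after its values were seen, had 0.392, 7.04 and 3.04 CPM in standard medium and 0.503, 0 and 0.531 CPM with Nikkomycin Z (adjusted p = 0.043 over the 21 libraries).

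Glycolysis and fermentation, heat shock proteins and translation factors showed the same arrangement, with replicate 1 near the treated libraries. The 15 glycolytic and fermentation genes summed to 215, 953 and 1031 CPM in standard medium and 247, 318 and 364 CPM with Nikkomycin Z (13 of 15 with a log2FC below 0, median -1.07 with and -1.44 without replicate 1). emp-7 (NCU10042), enolase, had 23.1, 192 and 166 CPM in standard medium and 17.4, 24.1 and 27.8 CPM with Nikkomycin Z (log2FC -2.46, adjusted p = 0.29). gpd-1 (NCU01528), glyceraldehyde-3-phosphate dehydrogenase, had 28.5, 159 and 184 CPM in standard medium and 26.9, 41.2 and 34.8 CPM with Nikkomycin Z (log2FC -1.85, adjusted p = 0.31).

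Heat shock proteins summed to 65.5, 133 and 123 CPM in standard medium and 52.2, 57.9 and 48.6 CPM with Nikkomycin Z (11 of 12 below 0, median -1.40 with and -1.74 without replicate 1). The chaperone gene hsp80 (NCU04142) had 5.38, 13.1 and 13.1 CPM in standard medium and 2.77, 1.8 and 3.65 CPM with Nikkomycin Z, without overlap (log2FC -1.94, adjusted p = 0.27), and hsp70-1 (NCU09602) had 6.95, 39.4 and 38.1 CPM in standard medium and 7.23, 7.1 and 7.2 CPM with Nikkomycin Z (log2FC -1.97, adjusted p = 0.28). Translation factors summed to 87.2, 379 and 240.3 and 111, 119.8 and 111 CPM (27 of 33 below 0, median -0.74 with and -1.11 without replicate 1). cot-3 (NCU07700), elongation factor 2, had 13.7, 86.1 and 40.1 CPM in standard medium and 11.4, 11.7 and 12.5 CPM with Nikkomycin Z (log2FC -1.98, adjusted p = 0.29), and NCU00040, a subunit of initiation factor 3, had 2.35, 15.9 and 6.47 CPM in standard medium and 2.05, 2.21 and 1.23 CPM with Nikkomycin Z (log2FC -2.18, adjusted p = 0.24). No member of these 3 lists passed over the 22 libraries, the 12 pull-downs or the 21 libraries. Over the 11 pull-downs 7 of the 12 heat shock genes, 4 of the 15 glycolytic and fermentation genes and 1 of the 33 translation factors passed, all lower, beside 4.22% of all features. They included hsp70-1, hsp80, emp-7, gpd-1 and NCU00040 (adjusted p = 0.027, 0.033, 0.027, 0.024 and 0.044).

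Ribosomal protein genes, unlike the translation factors, had list medians above 0 with all libraries, which for the large subunit turned below 0 without replicate 1. The 31 small-subunit genes had 25 log2FC above 0 (median 0.61 with and 0.46 without replicate 1) and the 46 large-subunit genes 27 (median 0.17 with and -0.056 without replicate 1), with no call over the 22 libraries, the 12 pull-downs or the 21 libraries. Over the 11 pull-downs 3 small-subunit genes passed, all higher, and 3 large-subunit genes, 2 higher and 1 lower, beside 3.01% higher and 4.22% lower over all features. The small-subunit genes summed to 103, 189 and 165 CPM in standard medium and 219.5, 214 and 242 CPM with Nikkomycin Z, and the large-subunit genes to 102, 261 and 238 and 265, 238 and 276 CPM. The groups of the small-subunit sums did not overlap, whereas the large-subunit sums of replicates 2 and 3 lay at or within the treated range.

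NCU03738 (S29) had 5.43, 2.87 and 2.74 CPM in standard medium and 8.16, 9.48 and 12.9 CPM with Nikkomycin Z (log2FC 1.48, adjusted p = 0.24), and NCU09089 (S30) had 6.33, 2.71 and 3.82 CPM in standard medium and 12.3, 10.8 and 15.4 CPM with Nikkomycin Z (log2FC 1.59, adjusted p = 0.29). NCU00315 (L29) had 3.31, 1.19 and 3.53 CPM in standard medium and 8.34, 10.1 and 8.53 CPM with Nikkomycin Z (log2FC 1.74, adjusted p = 0.29). NCU05032 (L40) had 3.03, 1.23 and 2.68 CPM in standard medium and 6.65, 6.75 and 6.7 CPM with Nikkomycin Z (log2FC 1.53, adjusted p = 0.3). In all 4 the groups did not overlap, and all 4 passed over the 11 pull-downs (adjusted p = 0.019, 0.013, 0.047 and 0.027). Of 24 ribosome biogenesis genes none was called (median -0.20 with and -0.49 without replicate 1). Its 2 members with the smallest p, NCU00981 (similar to NSA2) and NCU04243 (similar to IMP4), had log2FC of 1.81 and 1.72.

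Proteins encoded in mitochondrial DNA, a list drawn up after its members had been seen among the calls without replicate 1, had a log2FC above 0 in all 28 genes tested, with a median of 2.17. Their summed level was 258, 36.3 and 16.5 CPM in standard medium and 512, 297 and 727 CPM with Nikkomycin Z. Replicate 1 fell just under the treated range, and replicates 2 and 3 were far below it. NCU16003, cytochrome c oxidase subunit 3, had 24.1, 2.47 and 0.804 CPM in standard medium and 38.2, 23.6 and 50.4 CPM with Nikkomycin Z. NCU16013, cytochrome b, had 14.1, 1.87 and 0.976 CPM in standard medium and 34.0, 14.1 and 42.8 CPM with Nikkomycin Z.

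None of the 28 passed over the 22 libraries or over the 12 pull-downs. Over the 21 libraries 15 passed, all higher, beside 0.352% of all features, and the median was 4.31, while over the 11 pull-downs 22 passed, all higher, beside 3.01%. As the list was drawn up from calls without replicate 1, these counts partly restate what chose it. In the GUL-1-GFP pull-downs the list summed to 139, 26.3 and 43.4 CPM without and 31.6, 18.9 and 22.2 CPM with Nikkomycin Z, the first of these libraries again standing apart from the other 5. The wild-type inputs stood at 536 and 244 CPM in replicates 1 and 2 of the standard medium and at 1353, 896 and 1078 CPM with Nikkomycin Z. The 49 respiratory chain and ATP synthase genes, which include some of the mitochondrial ones, had a median of 0.20 with and 0.17 without replicate 1. Over the 21 libraries 2 of the 49 passed, both higher, beside 0.352% of all features. Over the 11 pull-downs 3 higher and 2 lower passed, beside 3.01% higher and 4.22% lower over all features. The nuclear atp-1 (NCU02514), ATP synthase subunit alpha, had 4.03, 23.1 and 10.8 CPM in standard medium and 3.95, 3.43 and 3.35 CPM with Nikkomycin Z (log2FC -1.82, adjusted p = 0.28). atp-2 (NCU05430), subunit beta, had 11.4, 30.4 and 17.6 CPM in standard medium and 6.9, 6.22 and 6.67 CPM with Nikkomycin Z (log2FC -1.58, adjusted p = 0.3).

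**Figure D4:**
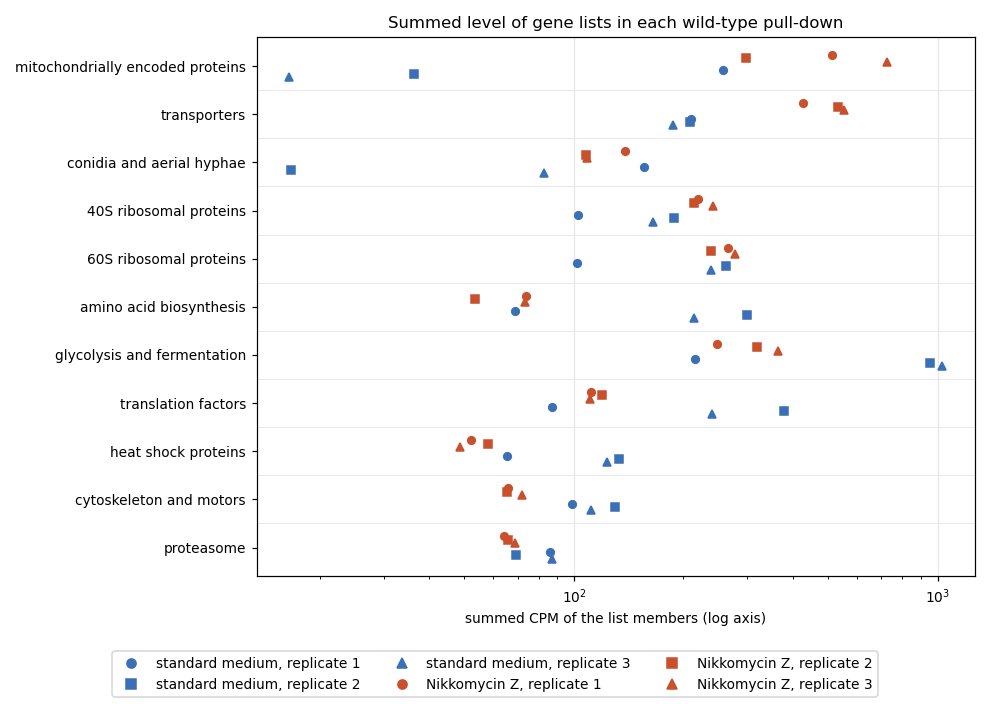
Summed CPM (log axis) of gene lists in each wild-type pull-down, standard medium in blue and Nikkomycin Z in red, symbols by replicate. Standard-medium replicate 1 (blue circle) lies with the Nikkomycin Z libraries for amino acid biosynthesis, glycolysis and mitochondrially encoded proteins and with its own group for transporters and the cytoskeleton.

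In some lists replicate 1 stayed with the other standard-medium libraries. Transporters summed to 209.5, 208 and 187 CPM in standard medium and 427, 531 and 554 CPM with Nikkomycin Z, without overlap, 37 of the 58 tested having a log2FC above 0 (median 0.48 with and 0.51 without replicate 1). NCU01633, whose levels are given above, accounts for most of the rise in that sum, with a mean of 20.7 CPM in standard medium and 274 CPM with Nikkomycin Z. Over the 12 pull-downs 2 transporters passed, both higher, beside 0.664% of all features. They were NCU01633 and NCU07960, a member of the major facilitator superfamily with 1.18, 1.67 and 1.98 CPM in standard medium and 5.07, 4.42 and 3.78 CPM with Nikkomycin Z. NCU01633 alone passed over the 21 libraries, and 8 higher and 1 lower, nit-10, passed over the 11 pull-downs, beside 3.01% and 4.22% of all features. nit-10 (NCU07205), a nitrate transporter, was higher in standard-medium replicates 2 and 3 than in the other 4 libraries, with 1.12, 26.7 and 11 CPM in standard medium and 1.37, 0.989 and 1.73 CPM with Nikkomycin Z (log2FC -3.24, adjusted p = 0.23).

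Cytoskeleton and motor genes summed to 98.5, 129.9 and 111 CPM in standard medium and 65.8, 65.3 and 72.0 CPM with Nikkomycin Z, again without overlap, with 27 of 35 log2FC below 0 (median -0.72 with and -0.48 without replicate 1). The actin regulators bud6 (NCU08468) and arp2 were called over the 12 pull-downs (adjusted p = 0.048 and 0.047). bud6 had 3.75, 4.1 and 3.63 CPM in standard medium and 1.58, 1.05 and 1.53 CPM with Nikkomycin Z (log2FC -1.46, adjusted p = 0.29), and arp2, a subunit of the Arp2/3 complex, had 2.3, 2.15 and 2.21 CPM in standard medium and 0.575, 0.873 and 0.597 CPM with Nikkomycin Z. Over the 11 pull-downs 5 of the 35 passed, all lower, beside 4.22% of all features. NCU06171, similar to the endocytic actin regulator Pan1, had 2.24, 9.27 and 6.66 CPM in standard medium and 1.62, 1.34 and 1.16 CPM with Nikkomycin Z (log2FC -2.14, adjusted p = 0.23). Clathrin heavy chain (NCU02510), of the vesicle traffic list, was nearly constant within each group, with 11.5, 11.2 and 11.4 CPM in standard medium and 2.91, 3.08 and 3.55 CPM with Nikkomycin Z (log2FC -1.84, SE 0.57, adjusted p = 0.21), and passed, of the 4 edgeR fits described first, only over the 11 pull-downs (adjusted p = 0.034). NCU01907, syntaxin 5, had 3.47, 0.915 and 2.27 CPM in standard medium and 11, 9.25 and 7.23 CPM with Nikkomycin Z (log2FC 2.05, adjusted p = 0.27). The 26 vesicle traffic genes had a median of -0.39 with and -0.26 without replicate 1. Over the 11 pull-downs 1 higher and 2 lower passed, beside 3.01% higher and 4.22% lower over all features.

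Proteasome genes had 27 of 32 log2FC below 0 with a median of -0.37 with and -0.23 without replicate 1 and no call over the 22 libraries, with or without replicate 1, or over the 12 pull-downs. rpn-2 (NCU09450), a regulatory subunit, had 6.22, 9.43 and 6.76 CPM in standard medium and 2.3, 1.98 and 2.95 CPM with Nikkomycin Z (log2FC -1.63, adjusted p = 0.29), and pcb-2 (NCU08605), a beta subunit, had 2.35, 2.59 and 2.78 CPM in standard medium and 1.33, 0.873 and 1.66 CPM with Nikkomycin Z (log2FC -0.99, adjusted p = 0.54), both without overlap. rpn-2 was the only proteasome gene past the threshold over the 11 pull-downs (adjusted p = 0.026), beside 4.22% of all features lower. Oxidative stress genes had 19 of 25 log2FC below 0 (median -0.38 with and -0.20 without replicate 1). Of the 4 fits only that over the 11 pull-downs called any of the 25, 1 higher and 2 lower. The shares over all features in that fit were 3.01% higher and 4.22% lower. cat-3 (NCU00355), a catalase, was at 0.168, 0.557 and 0.23 CPM in standard medium and without counts in all 3 treated libraries. It was at least 2.5-fold lower as a group mean, a limit that does not hold for standard-medium replicate 1 alone, which had 3 counts. rhd (NCU06031), a mitochondrial peroxiredoxin, had 2.52, 9.47 and 6.72 CPM in standard medium and 2.59, 1.8 and 2.82 CPM with Nikkomycin Z (log2FC -1.37, adjusted p = 0.33).

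Other signalling lists held no call over the 22 libraries, the 12 pull-downs or the 21 libraries. Of 9 calcium signalling genes 7 had a log2FC above 0 (median 0.31 with and 0.44 without replicate 1). The calcineurin-binding protein NCU01504 had 5.83, 4.26 and 3.2 CPM in standard medium and 14.8, 24.1 and 5.24 CPM with Nikkomycin Z (log2FC 1.73, adjusted p = 0.28) and was the single call of these lists over the 11 pull-downs (adjusted p = 0.047), and the calcium pump gene nca-3 (NCU05154) had 2.18, 1.43 and 1.26 CPM in standard medium and 3.63, 2.73 and 4.58 CPM with Nikkomycin Z (log2FC 1.18, adjusted p = 0.49). In the MAK-2 pathway of cell fusion (5 genes, median 0.055 with and 0.33 without replicate 1), ty-1 (NCU00455), similar to Ste50, had 0.728, 1.31 and 1.31 CPM in standard medium and 2.19, 2.04 and 1.63 CPM with Nikkomycin Z and the scaffold gene ham-5 (NCU01789) had 3.03, 5.97 and 6.54 CPM in standard medium and 5.1, 3.2 and 3.28 CPM with Nikkomycin Z, with adjusted p of 0.74 and 0.84.

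In the OS osmosensing pathway (6 genes, median -0.04 with and 0.08 without replicate 1), the MAP kinase os-2 (NCU07024) had 29.6, 4.58 and 7.72 CPM in standard medium and 6.83, 5.41 and 4.64 CPM with Nikkomycin Z, replicate 1 of the standard medium standing above the other 5 libraries (log2FC -1.30, adjusted p = 0.58). Without that replicate its log2FC was -0.13. The response regulator rrg-1 (NCU01895) had 2.18, 2.51 and 2.14 CPM in standard medium and 3.63, 3.14 and 2.69 CPM with Nikkomycin Z (log2FC 0.47, adjusted p = 0.84). Among 7 genes of ER folding and the unfolded protein response (median 0.25 with and 0.42 without replicate 1), erp38 (NCU03739), a protein disulfide isomerase, had a log2FC of 0.63 and NCU01856 of 0.52.

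**Figure D5:**
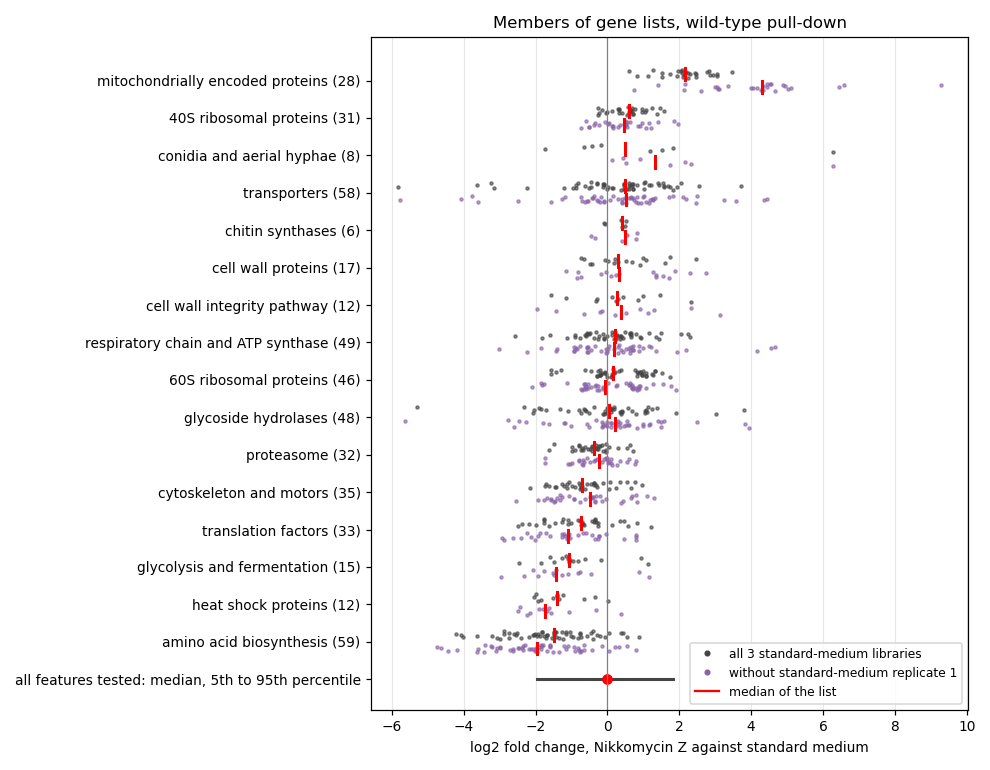
Log2FC of the members of gene lists (points; number of genes in brackets) with Nikkomycin Z against standard medium, with all 3 standard-medium libraries (grey) and without replicate 1 (purple); red bars are list medians, and the last line gives the median and the 5th to 95th percentile over all 7114 features. The median of amino acid biosynthesis lies at -1.49, that of mitochondrially encoded proteins at 2.17 and that of chitin synthases at 0.40.

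The libraries are labelled as hyphae, and markers of conidia and aerial hyphae were measured in all of them. Of 9 markers 8 were tested, con-13 having no counts in any of the 6 libraries. The log2FC was above 0 in 4 of the 8 and below 0 in 4. The median was 0.50 with and 1.34 without replicate 1, and -0.20 over those tested in the 12 pull-downs. The markers thus had no common direction with all libraries kept. In each of the 4 below 0, however, standard-medium replicate 1 was the highest of the 6 libraries, so that this split rests on that replicate. The list summed to 156, 16.7 and 82.9 CPM in standard medium and 138, 108 and 109 CPM with Nikkomycin Z, with replicate 2 of the standard medium the lowest. The hydrophobin gene eas, named after its values were seen, ranged from 0.358 CPM in that library to 61.5 CPM in replicate 1 and from 17.0 to 28.3 CPM with Nikkomycin Z. al-2 (NCU00585), phytoene synthase of carotenoid synthesis, had 13.4, 4.93 and 10.2 CPM in standard medium and 36.6, 31.3 and 33.4 CPM with Nikkomycin Z (log2FC 1.83, adjusted p = 0.4) and passed over the 12 pull-downs (adjusted p = 0.048). con-6 (NCU08769) had counts only with Nikkomycin Z, at 0.359, 0.524 and 0.166 CPM (10, 9 and 5 counts). It was at least 3.17-fold higher as a group mean, a limit that does not hold for treated replicate 3 alone. A different share of such cells in a culture and a different amount of RNA per cell cannot be told apart in these libraries, and the part of either in the differences above was not tested.

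Of the 212 rRNA features only 21 were tested, none passing over the 22 libraries (median -0.73 with and -1.29 without replicate 1). NCU15719 had 543975, 267882 and 131777 CPM in standard medium and 347570.0, 802188 and 369556 CPM with Nikkomycin Z (log2FC 0.69, adjusted p = 0.85). NCU15608 had 0, 19.9 and 37.2 CPM in standard medium and 2.41, 0.233 and 1.19 CPM with Nikkomycin Z (log2FC -3.87, adjusted p = 0.18, and 0.021 over the 21 libraries), and NCU15678 had 0.112, 5.05 and 9.89 CPM in standard medium and 1.62, 0.349 and 0.863 CPM with Nikkomycin Z (log2FC -2.40, adjusted p = 0.28). Both passed over the 11 pull-downs (adjusted p = 0.015 and 0.045). rRNA genes occur in near-identical copies, so that the division of reads among these features is uncertain.

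The wild-type inputs allow the response to be read beside that of total RNA. They carry the replicate numbers of the pull-downs, and whether they come from the same cultures is not stated in the labels. Input replicate 3 of the standard medium had only 59 counts on protein-coding genes and is left out of the levels given here. inv stood at 3.12 and 1.16 against 21.1, 54.6 and 33.8 CPM and NCU01633 at 55.6 and 5.82 against 312, 519 and 499 CPM without and with Nikkomycin Z. The input comparison called 71 of the 7114 features (0.998%), 66 higher (0.928%) and 5 lower (0.0703%), around a median log2FC of 0.55, and 35 (0.492%) without replicate 3. The unadjusted p was under 0.05 for 1223 features (17.2%). It called 829 without replicate 1 and 0 without replicate 2 of the standard medium. Of the 25 genes named above by p value, which are the 12 in each direction and NCU00556, 24 had the same direction in the inputs and 6 passed there, 3 without input replicate 3. The exception was NCU00556, the only lower call in the pull-downs. Its log2FC was 0.36 in the inputs and -8.52 in the pull-downs. In the inputs it had 0.740 and 0.970 CPM without and 0.670, 0.837 and 1.66 CPM with Nikkomycin Z. The share of all features with the same direction in both fractions is not given here as a baseline for the 24 of 25. With an input median log2FC of 0.55, the same direction was more likely for the higher genes. chit-1 was at 0 and 1.16 CPM in inputs without and at 0.837, 0 and 0 CPM in inputs with the drug.

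The difference between the responses of pull-down and input, tested as an interaction, passed for no feature with edgeR (538 of 7114 at an unadjusted p under 0.05, 7.56%) and for 1 with DESeq2. The input response in replicates 1 and 2 of the standard medium rests on 178300 and 50469 protein-coding counts, beside 257726 and 441807 in the corresponding pull-downs.

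In the GUL-1-GFP pull-downs the same drug comparison called 0 of 7114 features with edgeR and with DESeq2 (301 at an unadjusted p under 0.05, 4.23%). inv had 7.98, 4.35 and 3.14 CPM without and 5.5, 4.24 and 4.74 CPM with Nikkomycin Z. NCU01633 had 48.3, 21 and 15.9 CPM without and 27.3, 23.4 and 23.2 CPM with Nikkomycin Z. The 12 higher genes named by p value had a median log2FC of 3.61 in the wild-type and -0.31 in GUL-1-GFP, and the 13 lower genes -4.01 and 0.067, the former being values that chose the genes.

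The difference between the pull-downs of the strains in the response to Nikkomycin Z passed for 2 of 7114 features (0.0281%, with 711 or 9.99% at an unadjusted p under 0.05). They were inv (difference in log2FC 4.06, adjusted p = 0.047) and NCU01873 (4.51, adjusted p = 0.047), both responding more in the wild-type pull-downs. NCU01873 had 25.2, 4.64 and 5.66 CPM without and 5.07, 3.52 and 4.67 CPM with Nikkomycin Z in GUL-1-GFP. The fit over the 12 pull-downs called neither (adjusted p = 0.052 and 0.095), and both calls were lost when any of the 6 Nikkomycin Z pull-downs of either strain, wild-type replicate 2 or 3 in standard medium or GUL-1-GFP replicate 1 in standard medium was left out (adjusted p of inv and NCU01873 = 0.071 to 0.27). They passed without GUL-1-GFP replicate 2 or 3 in standard medium (adjusted p = 0.018 to 0.030) and without standard-medium replicate 1 of the wild-type (adjusted p = 0.014 and 0.018), where 40 features passed in all. Since GUL-1-GFP differs from the wild-type in the promoter of gul-1 as well as in the tag, the strains cannot be compared for either alone. The pull-downs also differ in what they hold, RNA left on the beads without a tagged protein in the wild-type and RNA pulled down with GUL-1-GFP in the other strain. A different drug response of the strains and a different kind of pull-down cannot be told apart by this test.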

How the data were processed

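RNA of hyphae was sequenced by the submitters from pull-down and total fractions of the wild-type and GUL-1-GFP strains, with stranded libraries. The deposited table holds, for 10592 features and 22 libraries, estimated counts that are whole numbers and not scaled for depth or length. The authors describe Tophat alignment of uniquely mapped reads and HTSeq tallies on exons, whereas the submitters' processing notes list CASAVA 1.8.2, HISAT2 2.1.0 and StringTie 1.3.3b. Which of these made the table is not given in the sources used here, nor is the genome build. Counts of 1 and 2 were rarer than those of 3 and 5 in every wild-type pull-down, for example 45, 79, 277 and 369 features in replicate 1 of the standard medium, so that the lowest values are not plain read tallies. Names were matched by identifier to the NC12 annotation for 10590 features, and products were taken from the study's gene tables.

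Groups came from the labels. edgeR 4.0.16 (R 4.3.3, limma 3.58.1) was fitted to the 22 libraries with 1 mean for each of 8 groups, TMM library sizes, features kept by filterByExpr with a minimum count of 10, its quasi-likelihood test, and p adjusted by Benjamini-Hochberg over all features tested (threshold 0.05). Shares were compared by an exact permutation test. DESeq2 1.42.0, other sets of libraries, scalings and filters, a replicate block and leaving out each library were run as alternatives, of which the fits without wild-type input 3 and without standard-medium pull-down 1 were chosen after seeing the data. Only the edgeR comparison of the wild-type pull-downs in the 22-library fit was tried on simulated counts, drawn once. The simulation held no replicate that stood apart from its group, so it does not cover that feature of these data or the alternative fits. The pull-downs hold between 18053826 and 28372176 counts, and limits from 3 counts cover counting error only.

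Genes are named by rule: the 12 with the smallest p in each direction whose groups do not overlap, every feature past the threshold, all members of the chitin synthase, glucan synthesis, GEL, CWI and COT-1 lists, the 2 members with the smallest p of each other list, and the rRNA feature with the highest count. Genes outside it are marked as named after their values were seen, or are list members past the threshold in an alternative fit or without counts. The genes and lists were chosen with earlier results of these data known. 1 listed gene is not reported here by name. The authors' own comparisons were not used, and no column of the table was left without a sample.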

Additional observations from a re-analysis of the deposited data

Results flagged for a closer look

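For inv (invertase) and NCU01873 the response to Nikkomycin Z differed between the wild-type and GUL-1-GFP pull-downs by the test of the difference itself. That test cannot tell a difference between the strains from one between bead-retained RNA and RNA pulled down with GUL-1-GFP. The log2FC in the wild-type pull-downs exceeded that in the GUL-1-GFP pull-downs by 4.06 for inv and by 4.51 for NCU01873, both with an adjusted p of 0.047 in edgeR over the 22 libraries. Both were higher with Nikkomycin Z in 3 of 3 wild-type libraries. The fit over the 12 pull-downs did not call them (adjusted p = 0.052 and 0.095), and over all alternatives the adjusted p was between 0.0013 and 0.27 for inv. Both calls were lost in 9 of the 12 fits that each left out 1 pull-down, those without any Nikkomycin Z library, without wild-type replicates 2 or 3 in standard medium and without GUL-1-GFP replicate 1 in standard medium.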

How the results depend on the processing

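Precision is limited by 257726 to 1171431 protein-coding counts per pull-down, by 3 libraries a group and by standard-medium replicate 1. The 3 features called in the wild-type pull-downs became 5 without wild-type input 3, 70 over the 12 pull-downs, 512 over 11 of them without replicate 1, 8 over the 6 libraries, 69 and 534 with DESeq2 over 22 and 6 libraries, and 76 without the filter. Total counts as library sizes called 2, both lower, around a median log2FC of -0.43. TMMwsp, protein-coding genes only, a mean of at least 20 counts and a fold limit left the count at 3. Leaving out 1 library gave between 1 and 46, the latter without standard-medium replicate 1. The interaction of pull-down and input went from 0 to 1 with DESeq2 and with total counts, to 2 without the filter and to between 0 and 17 with 1 library left out, the latter without input replicate 1 of the standard medium. The interaction of the strains went from 2 to 8 with DESeq2, 0 over the 12 pull-downs, 9 with total counts, 69 without the filter and between 0 and 40 with 1 library left out. The 71 input calls became 190 and 31 with DESeq2 over 22 and 6 libraries, 10 with total counts, 153 without the filter and between 0 and 829 with 1 library left out, the extremes being those without replicates 2 and 1 of the standard medium. The GUL-1-GFP count stayed at 0 in every alternative run. The difference in protein-coding share of -0.516 percentage points became 0.122 without NCU15719 and ranged from -1.09 to 0.262 with 1 library left out. The cause of these shifts was not tested.

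Replicate numbers were not taken as pairing: deviations of same-numbered wild-type pull-downs from their group means correlated at 0.084, 0.00055 and 0.13. With the number as a replicate block, the 22-library fit called 32 features in the pull-downs (25 higher, 7 lower), 41 for the strain interaction and 155 in the inputs, and the 6-library fits called 0 in the pull-downs and 0 in the inputs. No named gene changed direction past the threshold in any alternative. Of 111 named genes, 88 kept their side of the threshold without standard-medium replicate 1, 21 newly passed and 2 moved otherwise. Interactions over the 12 pull-downs or 6 libraries could not be fitted where they lacked a group of the contrast.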
